A study of Mus musculus with 48 samples.

Results

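The immunity-related GTPases are a family of large GTPases that mouse cells make in response to interferon-γ (IFN-γ), and 7 of their genes, of 55450 genes counted, were followed through RNA from 48 mouse melanomas. The genes were taken by symbol from a list. They were 3 regulators, Irgm1, Irgm2 and Igtp (also called Irgm3), and 4 effectors, Iigp1 (Irga6), Ifi47 (Irgd), Tgtp1 and Tgtp2 (both Irgb6). Ifi47 had entered the list because it was among the top genes between untreated tumors of iNOS KO and WT mice, so the values of untreated day 7 tumors are given below as a description without a test.

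All tumors grew from B16-D5, a subclone of a mouse melanoma line, in C57BL/6J mice (WT) or in mice lacking iNOS, the inducible nitric oxide synthase encoded by Nos2 (KO). Mice arrived when 4 weeks old and were kept for another 2 weeks, and tumor cells were placed under the skin of the flank 8 days before therapy. Treated mice received 250 µg of anti-PD-1 or of control IgG on days 0 and 3. The tumor cells came from 1 line and were the same in both genotypes, so only host cells lacked iNOS. The time course held 30 tumors of WT mice in 10 conditions of 3: untreated at 0 h, and untreated, IgG-treated or anti-PD-1-treated at 6 h, day 1 and day 3. The endpoint experiment held 18 tumors in 6 conditions of 3: untreated, IgG-treated or anti-PD-1-treated, in WT or KO mice, at day 7. Tumors were sequenced as whole tissue, so a lower level from fewer cells of a type and one from less RNA per cell cannot be told apart. Conditions were read from the sample titles, because the treatment field matched the title in 14 of 48 samples and the genotype field read WT in all 48, although 9 titles gave KO. The titles' day 0 was taken as 6 h, and the day of the endpoint, 7, came from the study's own description.

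Immunity-related GTPases defend cells against microbes that live inside vacuoles. The effector proteins load onto the vacuole membrane in their GTP-bound form and break it open. The regulators sit on the cell's own membranes and hold the effectors there in an inactive state, and proteins of the autophagy conjugation system direct the effectors to their target. IFN-γ acts through its receptor and the kinases Jak1 and Jak2, and among the genes it induces is the transcription factor Irf1. GAS and ISRE elements are short sequences in the promoters of interferon-inducible genes, and Irf1 binds ISRE elements. Guanylate-binding proteins are a second family of IFN-γ-inducible GTPases that act at the same vacuoles.

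On GRCm38, 6 of the 7 genes lie on chromosome 11. Irgm1 spans chr11:48861968-48871683 on the minus strand, Tgtp1 chr11:48985327-48994172 on the minus strand, Tgtp2 chr11:49057194-49064206 on the minus strand and Ifi47 chr11:49076587-49096974 on the plus strand. Igtp at chr11:58199556-58207591 and Irgm2 at chr11:58199618-58222782 overlap on the plus strand. Iigp1 lies on another chromosome. Tgtp1 and Tgtp2 are near-identical copies: 73.1% of the 100-base windows of Tgtp1 transcripts and 76.8% of those of Tgtp2 also occurred in transcripts of other genes. How reads were split between them is therefore uncertain, and their sum is also given. For Irgm2 the shared windows were 3.01%, for Igtp 5.16% and for Ifi47 0.842%, and Irgm1 and Iigp1 shared none. The annotated span of Olfr56, an olfactory receptor gene, holds Ifi47 on the same strand, and counts on Olfr56 were between 1.79% and 51.2% of those on Ifi47 in the same tumor.

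The RefSeq promoters of the chromosome 11 genes mostly share a stretch with the letters of an interferon element just upstream of the RefSeq start. RefSeq promoters on GRCm38.p6, each with 250 bases before and 50 after the start, were given for 6 of the 7 genes, and Iigp1 was not among them. Both strands were searched. ISRE-type letters, GAAA followed by any 2 bases and GAAA again, occurred in 5 of the 6 windows and in 3.44% of 32851 windows of all genes. The GAS-type letters TTCNNNGAA occurred in 4 of the 6 and in 8.3% of all. These 4 windows held both in a row, the GAS-type letters, any 2 bases and then the ISRE-type letters. This joined form was written down after reading these promoters and holds both shorter motifs. It occurred in 5 of the 32851 windows (0.0152%), those of Irgm2, Igtp, Tgtp1, Tgtp2 and the neighbouring Gm12185. Ifi47 held none of the 3 patterns in this window. The 30 bases around each match are printed 5′ to 3′ on the gene's strand to show how closely the genes resemble each other there, with the motif letters in capitals. They end between 8 and 63 bases before the RefSeq start. Those of Irgm1, Irgm2 and Tgtp1 lie inside the annotated gene spans given above. The Irgm1 stretch also overlaps an exon of another annotated Irgm1 transcript. A match is a description of letters and not a measured binding site.
Irgm1, chr11:48871428-48871457, minus strand: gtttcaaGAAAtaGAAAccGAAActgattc
Irgm2, chr11:58214898-58214927, plus strand: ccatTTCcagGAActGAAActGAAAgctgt
Igtp, chr11:58199507-58199536, plus strand: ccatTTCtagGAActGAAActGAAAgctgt
Tgtp1, chr11:48992309-48992338, minus strand: ccatTTCcagGAAtcGAAActGAAAcctac
Tgtp2, chr11:49064268-49064297, minus strand: ccatTTCcagGAAtcGAAAccGAAAcctac

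Libraries had 25574203 to 47687872 counts on genes in the time course and 11625862 to 40959309 in the endpoint experiment. Melanoma markers (7 genes) summed to 9300 to 20424 CPM in the time course and 9582 to 18842 CPM at day 7, so all tumors carried the labelled tumor type. CPM is the count scaled to 1000000 counts of the library's TMM-adjusted total, and each experiment was normalized on its own. Nos2 had 1.16 to 5.95 CPM in the 9 tumors labelled KO and 1.40 to 7.43 CPM in the 9 day 7 WT tumors. The tumor cells were not made from KO mice and the count covers the whole gene, so this does not check the labels, and KO below means a tumor labelled KO. At day 7, 3 libraries stood apart by their counts on 1781 sensory receptor genes: WT anti-PD-1 replicates 3 and 4 had 3038 and 1271 CPM and untreated KO replicate 1 had 944 CPM, against at most 331 CPM in any other library of either experiment. Day 7 contrasts that use them are also given without them, an alternative chosen after seeing the data.

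All 7 genes were detected in every tumor, the lowest count being 23 (Tgtp1 at day 7). Iigp1, the only one of them away from chromosome 11, spans chr18:60376027-60392634 on the plus strand. Per kilobase of exon, the median level over the 30 time-course tumors was 19.7 CPM for Irgm2, 16.2 for Igtp, 15.9 for Irgm1, 13.7 for Tgtp2, 13.5 for Iigp1, 7.39 for Ifi47 and 2.47 for Tgtp1. The regulators Irgm1 and Irgm2 varied least between tumors, and the effectors and Igtp varied most. From the lowest to the highest tumor of the time course, Irgm1 spanned 9.65-fold and Irgm2 13.9-fold. Ifi47 spanned 36.8-fold, Igtp 48.5-fold, Iigp1 50.8-fold, Tgtp2 54.0-fold and Tgtp1 473-fold. Day 7 spans were narrower, 3.87-fold for Irgm1, 4.90-fold for Irgm2, 10.8-fold for Ifi47, 14.9-fold for Igtp, 20.5-fold for Iigp1, 22.9-fold for Tgtp2 and 97.2-fold for Tgtp1.

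Much of this variation lay between mice of the same condition. The within-condition SD in the time course was 0.93 log2 units for Irgm1, 1.29 for Ifi47, 1.56 for Igtp and 2.24 for Tgtp1, against a median of 0.37 over all tested genes. Between 96.8% (Irgm1) and 99.9% (Tgtp1) of tested genes varied less. At day 7 the SD ran from 0.31 (Irgm1) to 1.09 (Tgtp1), with a median of 0.43 over all tested genes, and Irgm1 was then among the less variable genes, with 31.8% of genes below it.

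**Figure D1:**
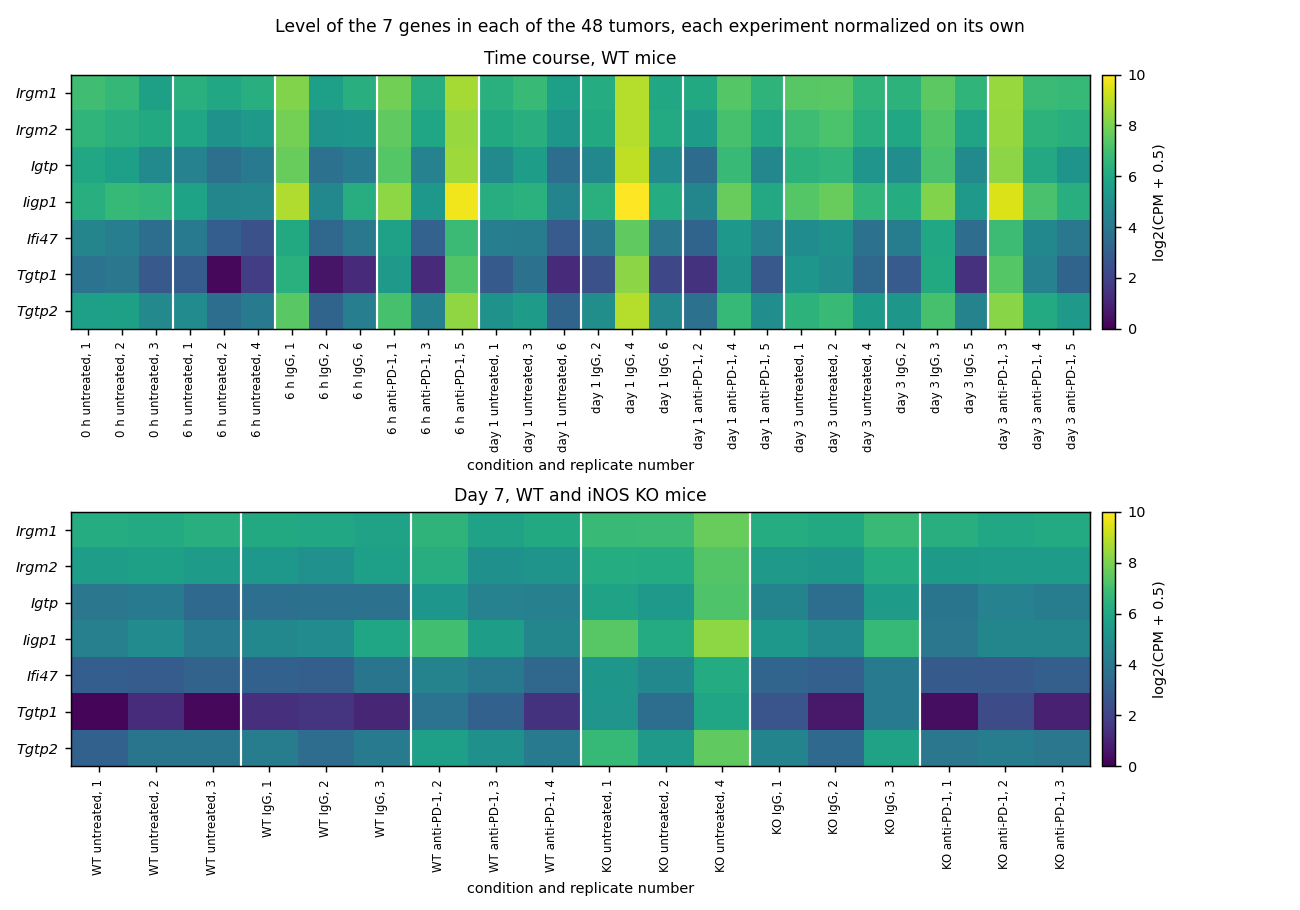
Each column is 1 tumor, ordered by condition and replicate number, and each row is 1 gene; the colour gives log2(CPM + 0.5) from 0 to 10, with white lines between conditions. The columns brighten or darken together across the 7 rows, most of all in day 1 IgG replicate 4 and, at day 7, in untreated KO replicate 4.

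Levels of the 7 genes varied together from tumor to tumor, as the heat map of all 48 tumors shows. Over the 30 time-course tumors the pairwise Pearson r of log2(CPM + 0.5) ran from 0.930 to 0.988, and over the 18 day 7 tumors from 0.734 to 0.959. These are descriptions over tumors that share conditions, normalization and, for Tgtp1 and Tgtp2, reads. In 1 tumor, day 1 IgG replicate 4, all 7 genes reached their highest level of the time course. Iigp1 had 1118 CPM there, Igtp 534, Irgm1 478, Irgm2 477, Tgtp2 475, Tgtp1 308 and Ifi47 187 CPM. That tumor also had the highest summed T and NK cell markers of the time course (114.5 CPM over 10 genes, range in the others 8.28 to 93.0) and the highest Ifng, at 6.95 CPM from 287 counts. Their part in the result was not tested. At day 7 all 7 genes were highest in untreated KO replicate 4, with Iigp1 at 313 CPM, Irgm1 at 206 and Tgtp2 at 188 CPM.

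The order of conditions by the mean over the 7 genes of log2(CPM + 0.5) was led in the time course by 6 h anti-PD-1 at 6.56 ± 1.99 (SD, n = 3), followed by day 3 anti-PD-1 at 6.47 ± 1.49 and day 1 IgG at 6.20 ± 2.26. Untreated tumors of day 3 (6.07 ± 0.66), day 3 IgG (5.57 ± 1.28), untreated 0 h (5.40 ± 0.43), 6 h IgG (5.25 ± 1.97) and day 1 anti-PD-1 (5.21 ± 1.29) came next. Untreated day 1 (4.79 ± 0.91) and untreated 6 h tumors (4.25 ± 0.59) came last. No neighbours in this order differed by more than their pooled SD. At day 7, untreated KO tumors led at 6.27 ± 0.86, above WT anti-PD-1 at 4.81 ± 0.70 by more than the pooled SD. The untreated day 7 tumors served to choose Ifi47, so their places in the order are a description only. KO IgG (4.66 ± 0.88), WT IgG (4.11 ± 0.18), KO anti-PD-1 (4.05 ± 0.23) and untreated WT tumors (3.90 ± 0.19) followed, and no neighbours among these, WT anti-PD-1 included, differed by more than their pooled SD.

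At 6 h, the question was whether 1 dose of anti-PD-1 changed these genes. Levels were high in 2 of the 3 anti-PD-1 tumors and in 1 of the 3 IgG tumors, and no gene passed the test. The regulator Igtp had 164, 20.9 and 368 CPM after anti-PD-1 (replicates 1, 3 and 5), 204, 12.96 and 17.2 CPM after IgG (replicates 1, 2 and 6) and 21.2, 12.3 and 16.5 CPM in untreated tumors (replicates 1, 2 and 4). The effector Iigp1 had 316, 40.03 and 873 CPM after anti-PD-1, 445, 25.2 and 74.5 after IgG and 54.5, 23.8 and 24.5 untreated. For both genes the groups overlapped, because anti-PD-1 replicate 3 lay at the level of the untreated tumors and IgG replicate 1 lay among the high anti-PD-1 tumors. Ifi47 had 52.5, 8.37 and 114 CPM after anti-PD-1, 66.6, 10.03 and 15.5 after IgG and 16.8, 7.52 and 5.08 untreated. Tgtp1 and Tgtp2 summed to 177, 22.3 and 474 CPM, 257, 9.77 and 20.6 CPM and 35.1, 12.5 and 19.4 CPM in the same order. The same tumors were high for the effectors as for the regulators. Summed T and NK cell markers were also highest in these tumors among the treated ones, with 32.5, 12.01 and 51.5 CPM after anti-PD-1 and 30.6, 15.5 and 11.1 CPM after IgG, and with 28.9, 8.28 and 8.54 CPM in untreated tumors. Their part in the result was not tested.

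Against IgG at 6 h, the log2 fold changes ran from 0.82 to 1.24 (median 1.17), all above 0, and 0 of 7 genes passed an adjusted p under 0.05 by edgeR's quasi-likelihood test (background 0% of 26848 genes). None had an unadjusted p under 0.05 (background 0.778% higher). Igtp differed by 1.24 (SE 1.13, adjusted p = 1 from edgeR), and Irgm2, at 0.93 (SE 0.75, adjusted p = 1 from edgeR), had the lowest unadjusted p of the 7. These values depended on single tumors: without anti-PD-1 replicate 5 they ran from −0.37 (Tgtp1) to 0.28 (Irgm2), and without IgG replicate 1 from 1.98 (Irgm1) to 5.68 (Tgtp1). Against untreated tumors, which share the anti-PD-1 samples, anti-PD-1 tumors differed by 1.70 to 4.22 (median 3.08). All 7 genes then had an unadjusted p under 0.05 (background 2.13% higher), but 0 of 7 passed the adjusted threshold (0% of all genes), with an adjusted p of 1 for each. Iigp1 differed by 3.58 (SE 1.19, adjusted p = 1 from edgeR) and Tgtp1 by 4.22 (SE 1.79, adjusted p = 1 from edgeR). IgG tumors also lay above untreated ones, from 0.88 to 2.99 (median 1.85), with 1 of 7 genes, Iigp1, at an unadjusted p under 0.05 (background 3.53%) and 0 of 7 passing (0%). Both treated groups share the untreated controls. DESeq2's Wald test also called 0 of the 7 genes in all tested comparisons but 1, KO against WT after anti-PD-1.

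**Figure D2:**
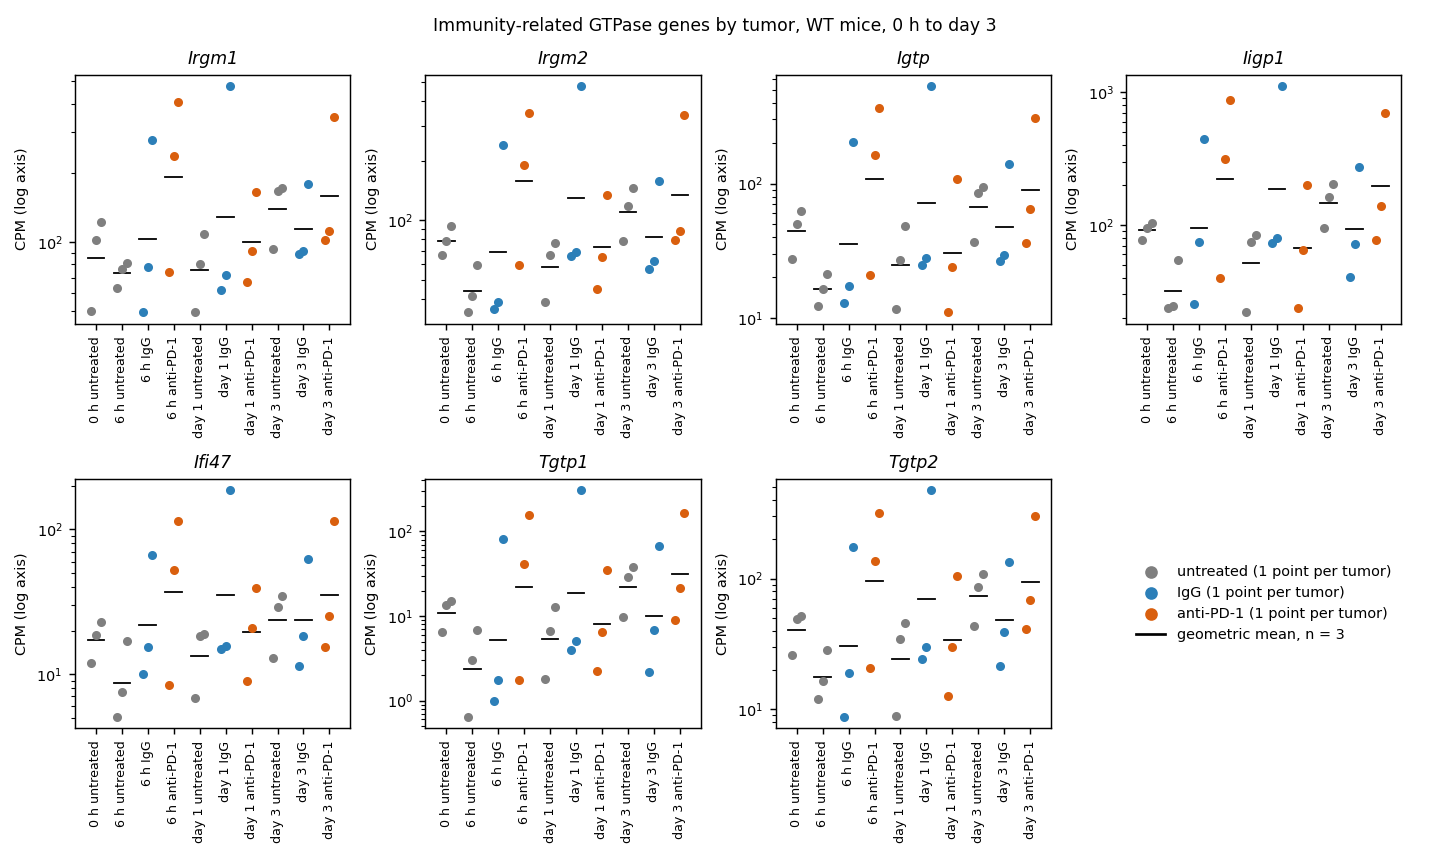
One panel per gene shows CPM on a log axis for each of the 30 time-course tumors by condition (grey untreated, blue IgG, orange anti-PD-1); black lines are geometric means of 3 tumors. Single high tumors lift the means, as in day 1 IgG, where Igtp was at 24.6, 534 and 27.7 CPM.

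At day 1 the single tumor with the highest levels was an IgG tumor, and the other 8 lay lower. The regulator Irgm1 had 67.2, 165 and 91.3 CPM after anti-PD-1 (replicates 2, 4 and 5), 72.1, 478 and 61.9 after IgG (replicates 2, 4 and 6) and 80.8, 108 and 49.6 untreated (replicates 1, 3 and 6). Igtp had 11, 108 and 23.97 CPM after anti-PD-1, 24.6, 534 and 27.7 after IgG and 26.8, 48.5 and 11.6 untreated. Ifi47 had 8.93, 39.6 and 20.8 CPM, 15.5, 187 and 14.97 CPM and 18.97, 18.2 and 6.84 CPM in the same order. Anti-PD-1 replicate 4 was the highest of its group for all 3 genes, and the 3 groups overlapped for each. Against IgG the log2 fold changes ran from −2.86 to −0.92 (median −1.85), with 0 of 7 genes passing (background 0%) and none at an unadjusted p under 0.05 (background 2.53% lower). Iigp1 differed by −2.13 (SE 1.12, adjusted p = 1 from edgeR). Without IgG replicate 4 the direction turned for all 7 genes, which then differed by 0.22 (Irgm2) to 1.58 (Tgtp1). IgG tumors against untreated ones gave 1.36 to 3.89 (median 2.57), with 6 of 7 genes at an unadjusted p under 0.05 (background 4.01% higher) and 0 of 7 passing (0%). Anti-PD-1 against the same untreated tumors gave 0.43 to 1.03 (median 0.69), with 0 of 7 genes passing (0%). The day 1 IgG tumors also differed from untreated ones in tissue markers. All 5 skeletal muscle genes (median 7.29) and all 4 keratinocyte genes (median 7.76) had an unadjusted p under 0.05, with overlap and none passing. The 3 leukocyte markers had a median of 1.08, with 2 of 3 at an unadjusted p under 0.05 (background 4.01% higher). The 10 T and NK cell markers (median 1.59) were all above 0, with 2 of 10 at that threshold. The 7 macrophage markers (median 0.77) were also all above 0, with 2 of 7 at it. After anti-PD-1 the muscle and keratinocyte medians were 4.35 and 3.15 against untreated tumors. What part tissue content had in these day 1 values was not tested.

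At day 3 the spread was again set by 1 tumor, anti-PD-1 replicate 3, while IgG replicate 3 was the highest of its own group. Iigp1 had 703, 139 and 77.5 CPM after anti-PD-1 (replicates 3, 4 and 5), 72.2, 273 and 40.9 after IgG (replicates 2, 3 and 5) and 163, 203 and 94.3 untreated (replicates 1, 2 and 4). Irgm2 had 341, 88.6 and 79.7 CPM, 62.1, 157 and 56.8 CPM and 118, 145 and 78.2 CPM in the same order. Ifi47 had 114, 25.1 and 15.3 CPM, 18.3, 62.4 and 11.5 CPM and 29, 34.4 and 12.9 CPM. Untreated day 3 tumors lay within the range of the treated ones for all 3 genes. Anti-PD-1 against IgG gave 0.65 to 1.37 (median 1.07), with 0 of 7 genes passing (background 0%) and none at an unadjusted p under 0.05 (background 0.518% higher). Igtp differed by 1.07 (SE 1.13, adjusted p = 1 from edgeR). Leaving out anti-PD-1 replicate 3 turned all 7 genes, to values from −0.81 (Tgtp1) to −0.17 (Irgm2), and leaving out IgG replicate 3 gave 1.08 (Irgm1) to 3.89 (Tgtp1). Against untreated tumors the values ran from 0.39 to 1.35 (median 0.92) after anti-PD-1 and from −0.31 to 0.27 (median −0.25) after IgG, with 0 of 7 genes passing in either (0% in both). Summed T and NK cell markers were 49.98, 13.7 and 18.1 CPM after anti-PD-1, 17.9, 93.0 and 13.3 after IgG and 16.7, 32.9 and 17.4 untreated. Against IgG these 10 markers ran from −1.61 to −0.31 (median −0.70) after anti-PD-1, where the 7 genes lay above 0. Their part in the result was not tested.

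The difference of anti-PD-1 from IgG was itself compared between times. At day 1 it was lower than at 6 h by log2 differences from −4.09 to −1.74 (median −3.08), with 2 of 7 genes, Irgm2 and Iigp1, at an unadjusted p under 0.05 (background 1.86% lower) and 0 of 7 passing (0%, adjusted p = 1 from edgeR for each). Day 3 minus 6 h ran from −0.17 to 0.14 (median −0.15), with 0 of 7 passing (0%). Untreated tumors were also compared over time. Against 0 h, the 7 genes ran from −1.73 to −0.32 (median −1.17) at 6 h, from −0.72 to −0.21 (median −0.51) at day 1 and from 0.51 to 1.13 (median 0.65) at day 3. None passed the test in these 3 comparisons (0% of all genes in each). Irgm2, Igtp and Iigp1 did not overlap between 6 h and 0 h (3 of 7 lower, background 3.56% lower), Igtp being at 62.8, 50.1 and 27.3 CPM at 0 h (replicates 1, 2 and 3). These 3 comparisons share the 0 h tumors. One of them, replicate 3, had summed keratinocyte markers of 3338 CPM and skeletal muscle markers of 5005 CPM. The time-course medians were 1.86 and 11.4 CPM. Without replicate 3, 0 of 7 genes were called in each of the 3 comparisons. The same held with it, so this count cannot show what part that tumor had. Replicate 3 was the lowest 0 h tumor for Igtp.

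At day 7 the untreated tumors of the 2 genotypes stood apart for all 7 genes, the contrast from which Ifi47 had been chosen. Ifi47 had 39.03, 24.7 and 69.9 CPM in untreated tumors labelled KO (replicates 1, 2 and 4) and 7.39, 6.92 and 8.62 CPM in untreated WT tumors (replicates 1, 2 and 3). Igtp had 53.7, 40.6 and 151 CPM in KO and 15.1, 17.4 and 10.1 CPM in WT. Iigp1 had 169.7, 71.6 and 313 CPM in KO and 20.2, 27.95 and 17.1 CPM in WT. Every KO tumor lay above every WT tumor for these genes, with KO replicate 4 the highest and KO replicate 2 the lowest of its group. Irgm1 had 109, 113 and 206 CPM in KO and 71.9, 68.5 and 79.2 CPM in WT, and Irgm2 73.4, 71.1 and 159 CPM in KO and 46.5, 50.5 and 44.8 CPM in WT. Tgtp1 and Tgtp2 summed to 139.6, 52.6 and 247 CPM in KO and 8.80, 16.3 and 14.9 CPM in WT. The regulators Irgm1 and Irgm2 showed the smallest differences, log2 0.97 and 1.10. Igtp stood at 2.53, Ifi47 at 2.54, Iigp1 at 3.09, Tgtp2 at 3.17 and Tgtp1 at 5.08. All 7 genes were higher without overlap, against a background of 9.87% of genes higher and 7.77% lower. Nothing is read from this, because Ifi47 was chosen on this contrast and the other genes varied together with it. The median over all tested genes was 0.50, and that over the 9603 genes with a mean of at least 10 CPM was −0.13. The median of the 7 genes was 2.54, and 2.75 without the 3 libraries with many sensory receptor counts.

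**Figure D3:**
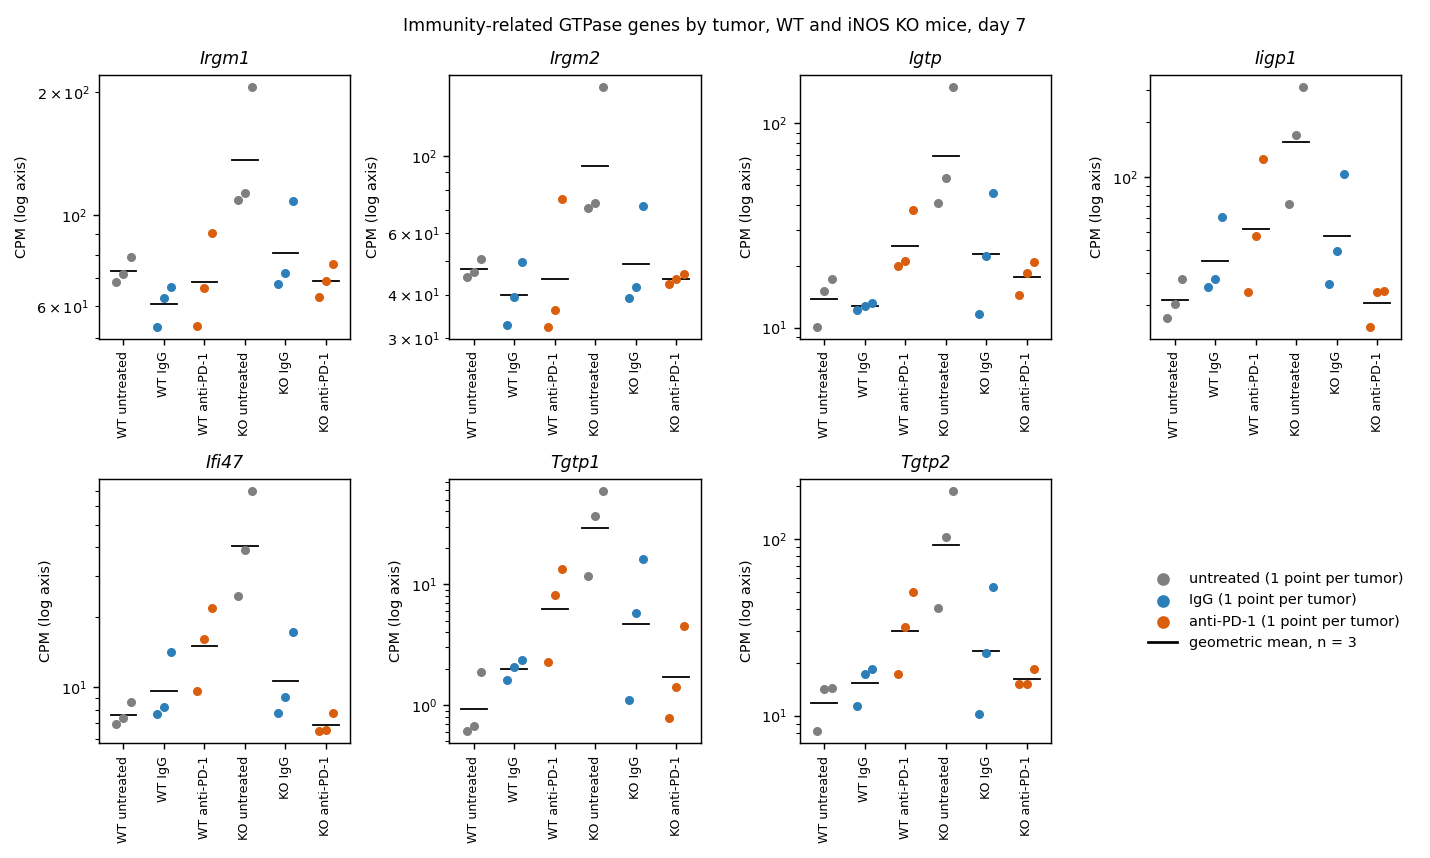
One panel per gene shows CPM on a log axis for each of the 18 day 7 tumors by genotype and treatment (grey untreated, blue IgG, orange anti-PD-1); black lines are geometric means of 3 tumors. The 3 untreated KO tumors lie above the 3 untreated WT tumors in every panel, and the 3 anti-PD-1 KO tumors lie below the untreated KO tumors.

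The effect of anti-PD-1 against IgG at day 7 was compared in each genotype. In WT mice Igtp had 37.5, 21.3 and 20.02 CPM after anti-PD-1 (replicates 2, 3 and 4) and 12.2, 12.8 and 13.2 CPM after IgG (replicates 1, 2 and 3). Iigp1 had 126, 47.8 and 23.5 CPM after anti-PD-1 and 25.2, 27.9 and 60.5 CPM after IgG. Igtp did not overlap between the groups and Iigp1 did. The log2 fold changes ran from 0.21 to 1.99 (median 0.80), where the median over all tested genes was 0.76 and that over genes of at least 10 CPM was −0.14. None of the 7 passed (background 0% of 30837 genes). At an unadjusted p under 0.05, Igtp, Tgtp1 and Tgtp2 were higher (3 of 7, background 12% higher), and Igtp alone did not overlap (background 9.8% higher). Igtp differed by 1.05 (SE 0.43, adjusted p = 0.308 from edgeR) and Tgtp1 by 1.99 (SE 0.80, adjusted p = 0.308 from edgeR). Without anti-PD-1 replicate 2 the values ran from −0.35 (Irgm2) to 1.24 (Tgtp1) and turned for Irgm1, Irgm2 and Iigp1. Without the 3 libraries with many receptor counts, 1 of them untreated, they ran from 0.55 (Irgm1) to 2.72 (Tgtp1), and the WT anti-PD-1 group was then replicate 2 alone, taken to vary like the other groups.

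In KO mice the 7 values lay below 0. Iigp1 had 15.3, 23.6 and 23.8 CPM after anti-PD-1 (replicates 1, 2 and 3) and 39.4, 26.3 and 104 CPM after IgG (replicates 1, 2 and 3). Ifi47 had 6.58, 6.49 and 7.74 CPM after anti-PD-1 and 9.06, 7.78 and 17.3 CPM after IgG. Neither gene overlapped between the groups, and IgG replicate 3 was the highest for both. The log2 fold changes ran from −1.79 to −0.20 (median −0.72), with 0 of 7 genes passing (background 0%). Iigp1 and Tgtp1 had an unadjusted p under 0.05 (2 of 7 lower, background 1.08% lower), and Iigp1 and Ifi47 did not overlap (background 3.62% lower). Iigp1 differed by −1.43 (SE 0.56, adjusted p = 1 from edgeR). Without KO IgG replicate 3 the values ran from −0.65 (Iigp1) to 0.13 (Irgm2) and turned for Igtp and Irgm2.

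The genotypes were then compared under the same antibody. After anti-PD-1, Ifi47 had 6.58, 6.49 and 7.74 CPM in KO against 21.8, 16.1 and 9.69 CPM in WT tumors and did not overlap. Irgm1 had 75.9, 63.2 and 68.9 CPM in KO against 90.2, 53.6 and 66.2 CPM in WT, and the groups overlapped. The KO minus WT log2 fold changes ran from −1.85 to −0.016 (median −1.03). The median over all tested genes was −0.92, but 0 without the 3 libraries with many receptor counts and 0.040 with those counts as a covariate, and over genes of at least 10 CPM it was 0.25. Summed T and NK cell markers were 2.80, 1.88 and 4.60 CPM in KO and 14.3, 28.99 and 15.3 CPM in WT tumors, with 8 of the 10 genes lower in KO without overlap, and melanoma markers were 15497 to 17264 CPM in KO and 9776 to 13659.8 CPM in WT tumors. The WT values of 28.99, 15.3, 9776 and 13659.8 CPM came from replicates 3 and 4, which had many receptor counts. The part of these markers in the result was not tested. None of the 7 passed (background 0%). Iigp1, Ifi47 and Tgtp1 had an unadjusted p under 0.05 (3 of 7 lower, background 26.7% lower), and Ifi47 alone did not overlap (background 16.7% lower). Ifi47 differed by −1.20 (SE 0.36, adjusted p = 0.118 from edgeR), and by −1.28 with an adjusted p of 0.027 in DESeq2's Wald test, which called 3227 of the 55450 genes counted in this comparison. Over 15 alternatives its adjusted p ran from 0.00202 to 1. Without the 3 libraries with many receptor counts the values of the 7 genes ran from −2.60 (Tgtp1) to −0.39 (Irgm1), but WT anti-PD-1 was then replicate 2 alone. Without WT anti-PD-1 replicate 2, which turned Irgm1 and Irgm2, they ran from −1.13 (Tgtp1) to 0.45 (Irgm2).

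After IgG, the antibody groups that had played no part in choosing Ifi47, the KO minus WT values ran from 0.18 to 1.94 (median 0.58) with all 7 above 0. None passed (background 0%). Igtp and Tgtp1 had an unadjusted p under 0.05 (2 of 7 higher, background 3.33% higher). Irgm1, at 72.2, 67.7 and 108 CPM in KO and 66.6, 62.5 and 53.3 CPM in WT, alone did not overlap (background 7.45% higher). Ifi47 differed by 0.18 (SE 0.36, adjusted p = 0.932 from edgeR). Without KO IgG replicate 3 the values ran from −0.28 (Ifi47) to 0.73 (Tgtp1), with Irgm2, Iigp1 and Ifi47 turned, and Ifi47 also turned, to −0.0076, without WT IgG replicate 2.

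The difference between genotypes in the anti-PD-1 effect was tested as an interaction, KO change minus WT change. It ran from −3.78 to −0.45 (median −1.62), where the median over all genes was −0.54. Igtp, Iigp1, Ifi47, Tgtp1 and Tgtp2 had an unadjusted p under 0.05 (5 of 7 lower, background 6.92% lower), and 0 of 7 passed (background 0%). Tgtp1 gave −3.78 (SE 1.12, adjusted p = 0.661 from edgeR), Iigp1 −2.23 (SE 0.79, adjusted p = 0.661 from edgeR) and Irgm1 −0.46 (SE 0.33, adjusted p = 0.765 from edgeR). It ran from −3.04 (Tgtp1) to 0.15 (Irgm2) without WT anti-PD-1 replicate 2 and from −4.52 (Tgtp1) to −0.81 (Irgm1) without the 3 libraries with many receptor counts. In the latter case WT anti-PD-1 was replicate 2 alone. The T and NK cell markers named above differed between the anti-PD-1 groups used here and, after IgG, were 5.53 to 14.3 CPM in KO and 13.4 to 24.2 CPM in WT tumors.

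Set beside untreated tumors of the same genotype, which served to choose Ifi47 and are therefore described only, anti-PD-1 KO tumors were lower for all 7 genes without overlap (background 8.5% lower), from −4.02 to −1.04 (median −2.68). In WT mice the same contrast ran from −0.062 to 2.91 (median 1.06), with Igtp, Ifi47, Tgtp1 and Tgtp2 higher without overlap (4 of 7, background 16.2% higher) and a median over all genes of 0.98. Without the 3 libraries with many receptor counts the values ran from −3.99 to −1.20 (median −2.76) in KO and from 0.31 to 3.67 (median 1.52) in WT mice, where replicate 2 alone then stood for anti-PD-1. Summed T and NK cell markers were 6.91 to 18.1 CPM in untreated KO and 1.88 to 4.60 CPM in anti-PD-1 KO tumors, and 1.99 to 6.44 CPM in untreated WT and 14.3 to 28.99 CPM in anti-PD-1 WT tumors, without overlap in either genotype. Without the 3 libraries, untreated KO tumors had 6.91 and 11.6 CPM and anti-PD-1 WT replicate 2 had 14.3 CPM. The part of these markers was not tested. The contrasts share the anti-PD-1 tumors with those above.

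**Figure D4:**
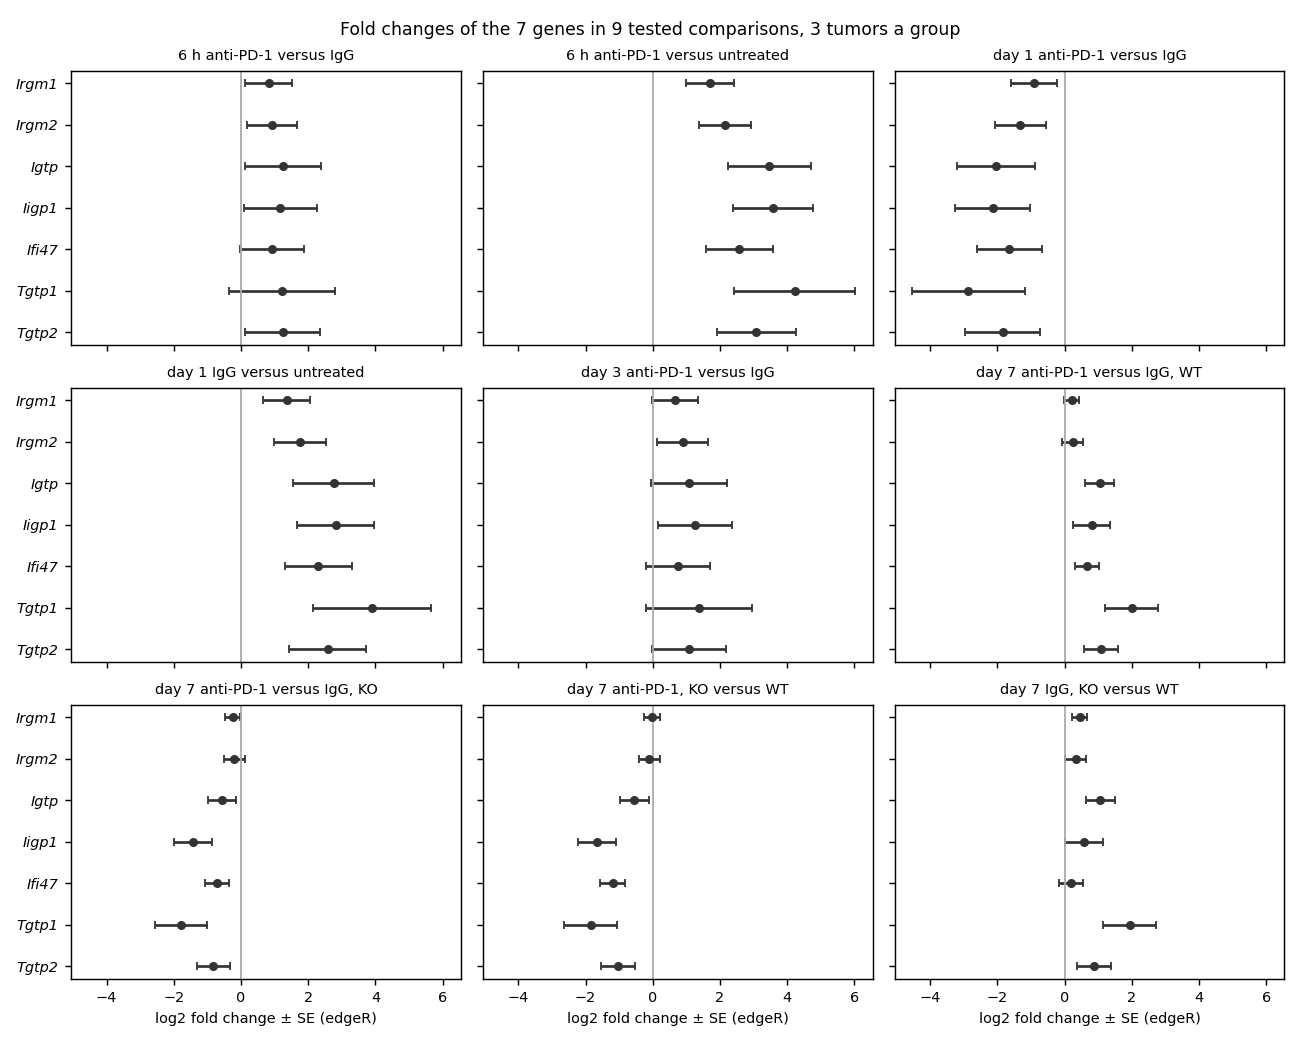
Points are log2 fold changes from edgeR and bars their standard errors for the 7 genes in 9 tested comparisons of 3 against 3 tumors; the grey line marks 0. Tgtp1 has the widest bars, and in day 1 anti-PD-1 against IgG all 7 points lie below 0, from −2.86 to −0.92.

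Other genes of the pathway were taken from lists that were fixed by name. None of them passed edgeR's adjusted test in any of the 19 tested comparisons. Among 11 guanylate-binding protein genes, all 11 had an unadjusted p under 0.05 in day 1 IgG against untreated tumors, against a background of 4.01%, with a median log2 fold change of 3.02 against 0.039 over all genes, and 8 of 11 did so in 6 h anti-PD-1 against untreated tumors (background 2.13%), with a median of 2.87. Untreated KO against WT tumors gave them a median of 2.42, with 8 of 11 higher without overlap (background 9.87%). That contrast served to choose Ifi47, so these values are a description only and nothing is read from them. The median of the 11 genes for KO against WT was −1.93 after anti-PD-1, with 5 of 11 lower at an unadjusted p under 0.05 (background 26.7% lower), and 0.20 after IgG, with 0 of 11 (background 3.33% higher). The 9 other immunity-related GTPase genes had medians of 1.23 in 6 h anti-PD-1 and 1.69 in day 1 IgG against untreated tumors, with 5 and 7 of 9 at an unadjusted p under 0.05 (backgrounds 2.13% and 4.01%). Gm12250, one of these, had 2.12, 1.91 and 0.967 CPM in anti-PD-1 KO and 9.25, 4.08 and 4.67 CPM in anti-PD-1 WT tumors. It differed by −1.86 (SE 0.59, adjusted p = 0.123 from edgeR) and was at 2.83 between untreated KO and WT tumors, again a description only. The 10 genes of the autophagy conjugation system had medians between −0.20 and 0.18 in the 24 comparisons, with at most 3 of 10 in 1 direction at an unadjusted p under 0.05, in day 7 anti-PD-1 against IgG in WT mice (background 12% higher). Most of the 11 guanylate-binding protein genes overlapped between day 1 IgG and untreated tumors. Gm12250 ran from 6.68 to 125 CPM in day 1 IgG tumors, with a median of 7.53 CPM, so 1 tumor set its group mean. What part that tumor had in the day 1 counts of these lists was not tested. Day 1 IgG tumors also differed from untreated ones in muscle, keratinocyte and leukocyte markers, as given above. Whether this bears on the day 1 values of the pathway lists was not tested.

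The 10 genes of IFN-γ signaling had medians of 0.68 in 6 h anti-PD-1 and 0.87 in day 1 IgG against untreated tumors, with 5 and 4 of 10 higher at an unadjusted p under 0.05 (backgrounds 2.13% and 4.01%). Ifng, the ligand itself, was sparse. At 6 h it had 62, 0 and 130 counts after anti-PD-1, 22, 2 and 0 after IgG and 3, 0 and 0 in untreated tumors. The 2 anti-PD-1 tumors and the IgG tumor in which the 7 genes were high were those with the most Ifng. A count of 0 allows up to 3 counts, for counting error only. At day 7 Ifng had 10, 0 and 14 counts in untreated KO (replicates 1, 2 and 4) and 0, 0 and 0 in untreated WT tumors. After anti-PD-1 it had 0, 2 and 0 counts in KO against 0, 6 and 14 in WT tumors (replicates 2, 3 and 4). WT anti-PD-1 replicates 3 and 4 and untreated KO replicate 1 were the libraries with many sensory receptor counts. All Ifng counts of the WT anti-PD-1 group therefore came from such libraries. The transcription factor Irf1 had 53.1, 41.1 and 105 CPM in untreated KO and 19.6, 27.5 and 23.5 CPM in untreated WT tumors. They did not overlap (background 9.87% higher), which is given as a description only. After anti-PD-1 Irf1 had 25.2, 24.7 and 27.5 CPM in KO and 53.5, 31 and 30.2 CPM in WT tumors, a difference of −0.57 (SE 0.31, adjusted p = 0.186 from edgeR).

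**Figure D5:**
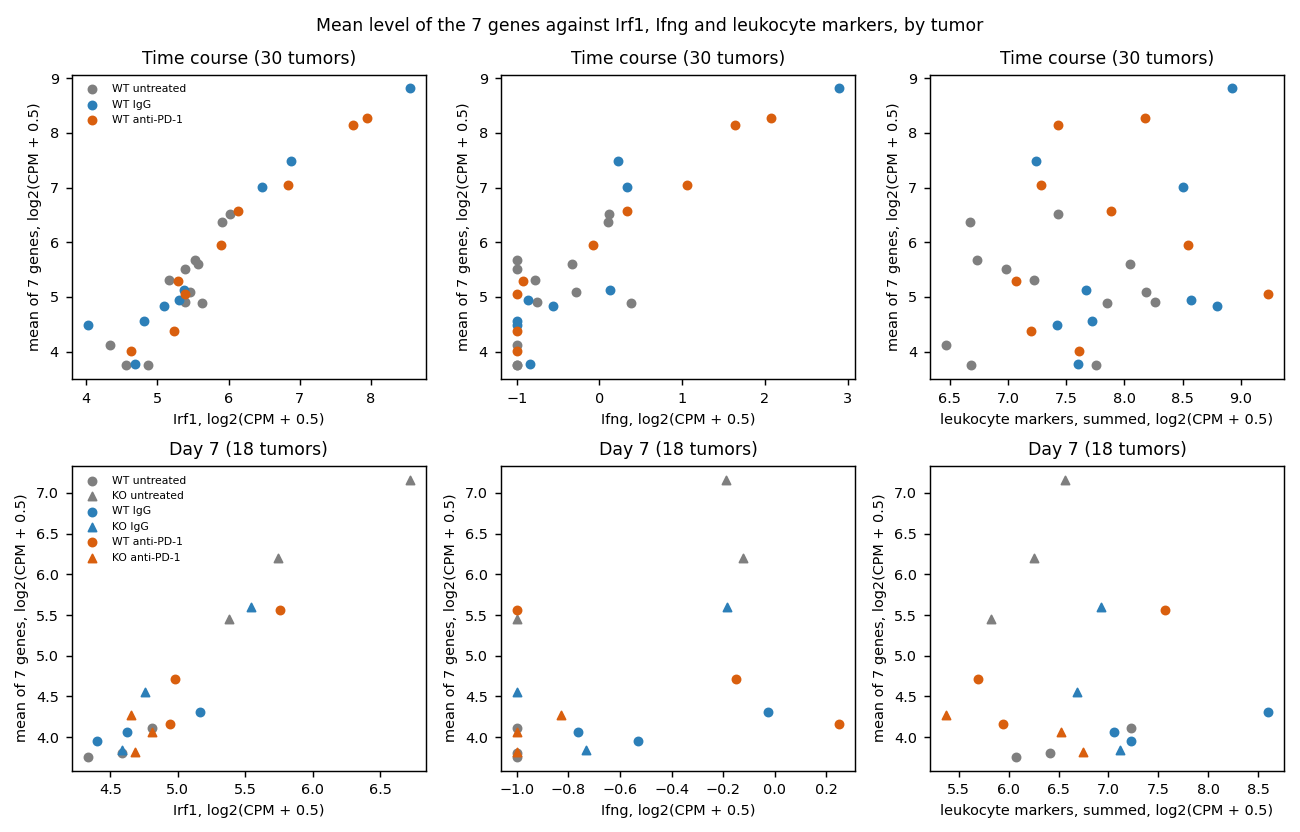
Each point is 1 tumor; the vertical axis is the mean over the 7 genes of log2(CPM + 0.5), set against log2(CPM + 0.5) of Irf1, of Ifng and of 3 leukocyte markers summed, for the time course (top) and day 7 (bottom). The points follow Irf1 in both experiments (r 0.955 and 0.960), Ifng mainly in the time course, and align less with the leukocyte markers, of which Ptprc alone had r 0.295 and 0.111.

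The genes whose levels followed those of the 7 most closely were sought among 14787 other genes with a mean of at least 1 CPM in both experiments, ranked by the smaller of the 2 Pearson r with the mean over the 7 genes. The first 8 were Irf1 (r = 0.955 over 30 tumors and 0.960 over 18), Batf2 (0.947 and 0.963), Cxcl9 (0.947 and 0.953), Gbp6 (0.973 and 0.939), Gbp2 (0.974 and 0.938), H2-T22 (0.938 and 0.932), Gbp3 (0.955 and 0.924) and Tapbpl (0.924 and 0.956). Batf2 encodes a transcription factor, Cxcl9 a chemokine that attracts T cells, H2-T22 a nonclassical MHC class I molecule and Tapbpl a peptide editor of MHC class I. Ifng had r = 0.882 and 0.372. The T cell gene Cd3e had 0.714 and 0.350, the pan-leukocyte gene Ptprc 0.295 and 0.111, and the melanocyte gene Mlana 0.327 and 0.435. All are descriptions over tumors that share conditions and library normalization. The summed leukocyte markers were 56.1 to 94.2 CPM in the 3 untreated KO tumors and 66.9 to 149 CPM in the 3 untreated WT tumors. The summed T and NK cell markers were 6.91 to 18.1 CPM in the KO and 1.99 to 6.44 CPM in the WT tumors, without overlap, and their part in the untreated KO values was not tested. The 18.1 CPM was in KO replicate 1, which had many sensory receptor counts, and KO replicates 2 and 4 had 6.91 and 11.6 CPM.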

How the data were processed

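RNA-seq was run on 48 tumors in 2 experiments of 30 and 18. The authors deposited whole-number counts per gene for 55450 genes. The submitters' processing notes name cutadapt 1.8.1, STAR 2.7.7a, RSEM 1.3.0 and mm10, while the name of the deposited count table refers to another counting program, so how multiply mapped reads were counted is not settled. Replicates were separate samples per the labels, and p-values measure the spread between them.

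Each experiment was fitted alone with edgeR 4.0.16 (R 4.3.3) with 1 coefficient per condition, TMM scaling, filterByExpr with a minimum count of 10, the quasi-likelihood test and Benjamini-Hochberg adjustment over all 26848 or 30837 genes tested. A gene was called at an adjusted p under 0.05, and SE is the log2 fold change divided by the square root of F. Log2 levels used CPM + 0.5. Scripts were tested on simulated data. These were set to vary less than the tumors, whose common coefficients of variation were 0.67 and 0.79. They therefore do not measure the power of the tests here. Alternatives were DESeq2 1.42.0 (its test, or its size factors in edgeR), no filter, Ptprc or sensory receptor counts as a covariate, only the groups compared, Tgtp1 and Tgtp2 summed, a replicate block, and leaving out libraries. Figures used Python 3.11.15 and matplotlib 3.10.9. Members, lists and the genes named were chosen with earlier results of these data known. The text names all 7 members, genes of the lists (Irf1, Ifng, Gm12250) and the 8 genes most like the members. Markers and Olfr56 were named after their values were seen. Same-numbered tumors of different conditions had a median correlation of deviations of −0.075 over 65 pairs and −0.0177 over 36, so numbers were not taken as pairs. An item that the rule also named is not reported here. Intervals and floors cover counting error only.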

Additional observations from a re-analysis of the deposited data

Results flagged for a closer look

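Opposite signs without overlap were seen in the day 7 data for Ifi47, Igtp, Tgtp1 and Tgtp2. Of all tested genes, 16.2% were higher without overlap in WT and 8.5% lower in KO mice, anti-PD-1 against untreated. For KO against WT, 16.7% were lower after anti-PD-1 and 9.87% higher without treatment. The share of all genes with opposite signs in both was not computed. None of the differences between these contrasts was tested, nor any contrast with untreated tumors, because those had served to choose Ifi47. The KO minus WT log2 fold change of Ifi47 was −1.20 after anti-PD-1 (adjusted p = 0.118 from edgeR) and 2.54 without treatment. Anti-PD-1 minus untreated values in WT and in KO mice were 1.06 and −2.68 for Ifi47, 0.89 and −2.19 for Igtp, 2.91 and −4.02 for Tgtp1 and 1.43 and −2.77 for Tgtp2. Tgtp1 and Tgtp2 share most of their sequence and count as 1 observation. Without the 3 libraries with many sensory receptor counts, WT anti-PD-1 replicates 3 and 4 and untreated KO replicate 1, the KO minus WT values of Ifi47 were −1.66 and 2.62, and the anti-PD-1 minus untreated values in WT and KO were 1.52 and −2.76 for Ifi47, 1.41 and −2.41 for Igtp, 3.67 and −3.99 for Tgtp1 and 2.04 and −2.81 for Tgtp2. WT anti-PD-1 was then replicate 2 alone, the highest of its group for each of these genes. These values therefore cannot show whether the opposite signs hold without the 3 libraries. Summed T and NK cell markers also lay higher after anti-PD-1 than untreated in WT (14.3 to 28.99 against 1.99 to 6.44 CPM) and lower in KO tumors (1.88 to 4.60 against 6.91 to 18.1 CPM), without overlap, and their part was not tested. Without the 3 libraries, anti-PD-1 WT replicate 2 alone had 14.3 CPM and the untreated KO tumors had 6.91 and 11.6 CPM.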

How the results depend on the processing

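Without a filter on low counts, 49294 genes were tested in the time course and 51257 at day 7. Members were then called at 5 of 7 in 6 h anti-PD-1 against untreated tumors (75 of 49294 genes) and 3 in day 1 IgG against untreated (206 of 49294). At day 7, of 51257 genes each, they were 3 in IgG KO against WT (274 genes), 2 in anti-PD-1 against IgG in KO (78) and 3 in WT (982). They were 4 in anti-PD-1 KO against WT (2829) and 4 in the interaction (270). DESeq2's Wald test called 1 member, Ifi47, in day 7 anti-PD-1 KO against WT (3227 genes called of 55450 counted). The cause was not tested. The replicate block left 0 members called in every comparison. In day 7 anti-PD-1 KO against WT the direction turned for Irgm1, to 0.10 with Ptprc as a covariate, 0.087 without the filter and 0.11 with the replicate block, and for Irgm2, to 0.35 with Ptprc and 0.011 with the replicate block. In day 7 anti-PD-1 against IgG in KO, Irgm2 turned to 0.16 with Ptprc. The median of all genes in day 7 anti-PD-1 KO against WT was −0.92 with TMM, −1.02 with DESeq2's size factors, −0.90 with Ptprc, −0.97 with the replicate block, −0.076 with only the groups compared, 0.040 with sensory receptor counts as a covariate, 0 without the 3 libraries richest in them, −3.36 without the filter and −3.58 in DESeq2's test.

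Leaving out 1 tumor at a time, day 1 anti-PD-1 against IgG ran from −2.27 to 0.54 for Ifi47, −3.47 to 0.79 for Igtp, −3.25 to 0.26 for Iigp1, −1.40 to 0.64 for Irgm1, −1.88 to 0.22 for Irgm2, −4.57 to 1.58 for Tgtp1 and −3.04 to 0.78 for Tgtp2. Day 3 anti-PD-1 against IgG ran from −0.66 to 1.82 for Ifi47, −0.42 to 2.31 for Igtp, −0.31 to 2.46 for Iigp1, −0.21 to 1.08 for Irgm1, −0.17 to 1.54 for Irgm2, −0.81 to 3.89 for Tgtp1 and −0.30 to 2.20 for Tgtp2, and 6 h anti-PD-1 against IgG from −0.37 to 5.68 for Tgtp1. At day 7, IgG KO against WT ran from −0.28 to 0.49 for Ifi47, −0.24 to 1.06 for Iigp1 and −0.031 to 0.48 for Irgm2. Anti-PD-1 against IgG in KO ran from −0.93 to 0.072 for Igtp and −0.37 to 0.13 for Irgm2, and in WT from −0.21 to 1.27 for Iigp1, −0.13 to 0.37 for Irgm1 and −0.35 to 0.46 for Irgm2. Anti-PD-1 KO against WT ran from −0.19 to 0.29 for Irgm1 and −0.35 to 0.45 for Irgm2, and the interaction from −0.67 to 0.15 for Irgm2. No member was called when any 1 tumor was left out. Depth limited Tgtp1, with as few as 23 counts, and Ifng, with 0 counts in several tumors.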
